A study of Mus musculus with 3 samples.

Results

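The genes described here encode the solute carriers, channels and protein import machinery of mitochondria. They were chosen by name from the platform annotation: every probe set with a single gene symbol of the forms Slc25a, Timm, Tomm, Vdac or Ucp followed by its number, together with Mpc1 and Mpc2, and leaving out Slc25a31. The rule uses names and no measured value. It gave 71 genes, read by 82 probe sets, of 19057 genes with a single symbol. Mpc2, Ucp2, Slc25a14, Slc25a43, Slc25a53, Timm17b and Timm10b were not analysed here.

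Mitochondria make only a few of their own proteins, so most are built in the cytosol and threaded through translocases: the TOM complex of the outer membrane, TIM23 for proteins with a cleavable presequence, and TIM22 for the inner membrane carriers themselves, which small TIM chaperones escort across the intermembrane space. The SLC25 carriers then move nucleotides, phosphate, carboxylates, amino acids and cofactors across the inner membrane, and the VDAC channels let small metabolites cross the outer one. Mouse embryonic stem (ES) cells are known to rely strongly on glycolysis while keeping functional mitochondria.

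The cells were R1, an ES cell line of mouse strain 129, and the labels name no treatment, genotype change or time point. Total RNA of 3 biological repeats was read on Affymetrix Mouse Gene 1.0 ST arrays, whose probes lie along the exons of each transcript. There is 1 group and no second condition, so the data answer which of these genes gave signal and how evenly the repeats read them. The labels do not say how the cultures were kept, or how the repeats were separated, so the spread between them may be in part technical.

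Values are log2 intensities in repeats 1, 2 and 3, and a mean is given ± SD over the 3 repeats (SD, n = 3 throughout). Intensity depends on a gene's own probes, so the level of one gene was not ranked against that of another. The background limit of each array was the 95th percentile of its values for 1170 smell and pheromone receptor genes (olfactory, vomeronasal), which lay at log2 4.72, 4.60 and 4.61, and genes beyond it were called above background. A higher limit was set in the same way from 160 genes of other tissue-restricted families, such as keratin-associated proteins and beta-defensins, at 6.19, 6.31 and 6.19. Median probe set intensity was between 46.7 and 47.8 on the 3 arrays. All 7 measured genes of 8 listed ES cell markers were above background on all arrays, with Pou5f1 at 11.77 ± 0.12 and Nanog at 10.89, 11.24 and 10.88 in repeats 1, 2 and 3. Of 11 measured feeder fibroblast markers 9 were above background on all arrays and 8 read highest in repeat 2, and the log2 of their summed intensity was 10.63, 11.23 and 10.67 in repeats 1, 2 and 3; Lum was above background on no array.

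Most genes of the set gave signal. Of the 71 members 64 (90.1%) were above background on all 3 arrays, beside 71.4% of the 17887 genes outside the receptor families. The count was 48 (67.6%) at the higher limit, beside 42.4% of the genes outside both kinds of family. Every member of the TOM, VDAC and TIM23 groups passed the lower limit, as did all 13 of the group of cofactor, nucleotide and metal carriers. That group leaves out the ATP-Mg/phosphate carriers. The 7 members that did not pass on all arrays were Slc25a2, Slc25a21, Slc25a41, Slc25a54, Timm8a2, Ucp1 and Ucp3. A gene under the limit was not shown to be silent, and no test of the set against other genes was made.

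**Figure D1:**
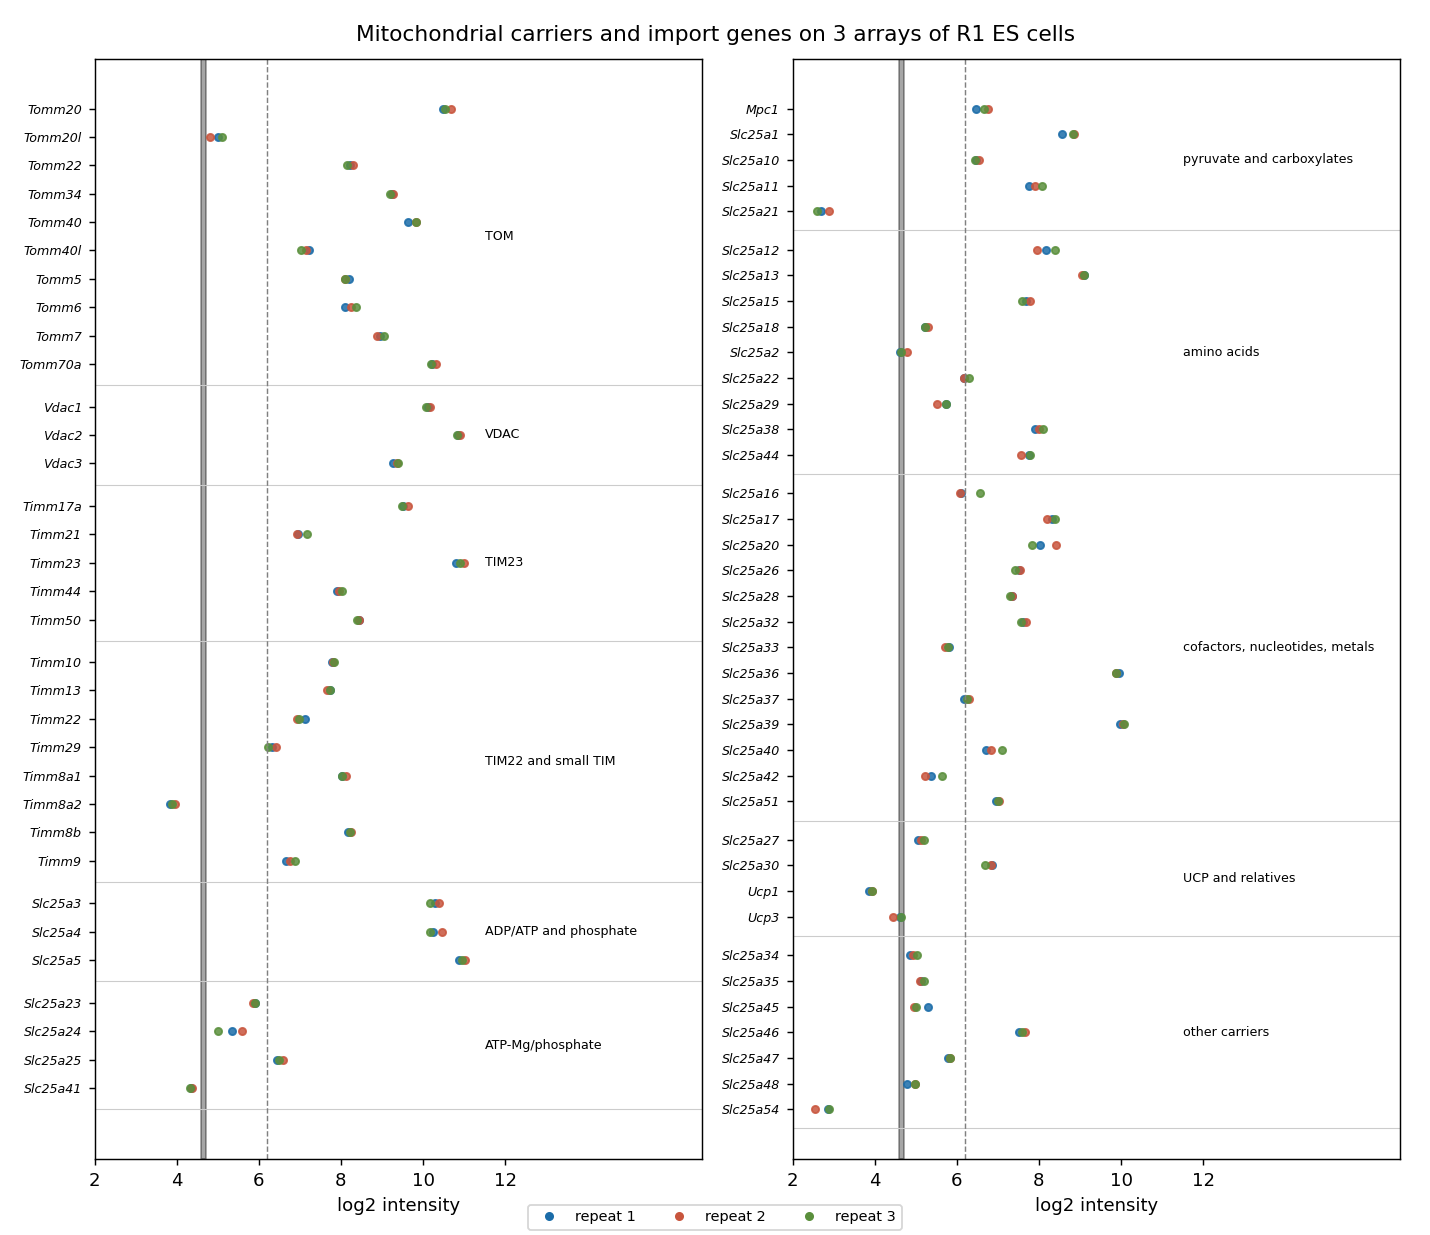
Log2 intensity (x axis) of the 71 members, a row for each gene, grouped by role; each point is 1 repeat. The grey band spans the background limits of the 3 arrays (4.60 to 4.72) and the dashed line is the higher limit of repeat 1 (6.19); 5 genes lie left of the band on all arrays, and positions of different genes are not comparable as amounts.

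The protein-conducting pore and the receptors of the outer membrane were read on every array. Tomm40, the channel subunit of the TOM complex, read 9.63, 9.83 and 9.83 in repeats 1, 2 and 3 (9.76 ± 0.12). Its presequence receptor Tomm20 read 10.49, 10.69 and 10.53, and Tomm70a, the receptor that takes in carrier precursors with their chaperones, read 10.21, 10.31 and 10.20. Both were highest in repeat 2, by 0.18 and 0.100 over the mean of the other repeats. Tomm22, which joins receptors to the pore, read 8.23 ± 0.069, and the small subunits Tomm5, Tomm6 and Tomm7 read 8.13 ± 0.060, 8.24 ± 0.13 and 8.95 ± 0.086. The cytosolic cochaperone Tomm34 lay at 9.23 ± 0.041 and differed little between repeats.

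The outer membrane group held the paralogs Tomm40l and Tomm20l. Tomm40l, a second form of the pore, was above both limits on all arrays (7.21, 7.14 and 7.03). Tomm20l read 5.02, 4.82 and 5.11, above the lower limit and under the higher one on every array, so its signal is near background. Tomm20 itself has 2 probe sets, which differed by 0.041 log2 units in their means.

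The anion channels of the outer membrane had a median SD of 0.045 over 3 genes. Vdac1 read 10.12, 10.16 and 10.07, Vdac2 10.85, 10.91 and 10.82 and Vdac3 9.26, 9.37 and 9.40. Their widest span over the repeats was 1.10-fold, in Vdac3. The 2 probe sets of Vdac2 differed by 0.85 log2 units in level, but both kept the repeats close together. Of the 3 probe sets of Vdac3, 2 held identical values.

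All 5 measured members of the TIM23 translocase were above both limits. Timm23, which forms the inner membrane channel, read 10.81, 10.99 and 10.90, lowest in repeat 1 and highest in repeat 2. Timm17a, its partner in the channel, read 9.51, 9.62 and 9.49. Timm50, the receptor facing the intermembrane space, read 8.45, 8.43 and 8.39. Timm44, which tethers the import motor to the channel on the matrix side, read 7.91, 7.96 and 8.03, and Timm21, which links TIM23 to TOM, read 6.96, 6.92 and 7.19. The 4 probe sets of Timm23 had means within 0.015 log2 units of each other, and 2 of them held identical values, so they do not give separate readings of its copies. The 2 probe sets of Timm17a differed by 0.68 log2 units.

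Of 8 members of the TIM22 pathway, 7 were above both limits and 1 was above neither. Timm22, the channel that inserts carriers into the inner membrane, read 7.14, 6.94 and 6.98, and Timm29, a further subunit of that complex, read 6.33, 6.41 and 6.21. The small chaperones Timm9 (6.77 ± 0.099), Timm10 (7.80 ± 0.020), Timm13 (7.71 ± 0.050) and Timm8b (8.21 ± 0.033) all gave signal. Timm10 read 7.78, 7.81 and 7.82 in the repeats. The exception was a paralog of Timm8a1, a partner of Timm13: Timm8a1 read 8.02, 8.12 and 8.03, and Timm8a2 read 3.84, 3.96 and 3.89, under the limit on every array.

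The promoters of this pair differed in their CpG dinucleotides, the sites of DNA methylation that cluster at the start of many broadly active genes. They are shown, with Timm23 and Ucp3 for comparison, as chosen examples that set detection beside CpG content. Members above background with few CpG sites, such as Tomm5, are not displayed, and their ratios are given below. Each is the 250 bases before the RefSeq gene start, 5′ to 3′ on the gene's strand in build GRCm38.p6, with CpG in capitals. Timm8a1 lies at chrX:134541671-134541920 on the minus strand, Timm8a2 at chr14:122034424-122034673 on the plus strand, Timm23 at chr14:32201892-32202141 on the minus strand and Ucp3 at chr7:100472741-100472990 on the plus strand.
Timm8a1: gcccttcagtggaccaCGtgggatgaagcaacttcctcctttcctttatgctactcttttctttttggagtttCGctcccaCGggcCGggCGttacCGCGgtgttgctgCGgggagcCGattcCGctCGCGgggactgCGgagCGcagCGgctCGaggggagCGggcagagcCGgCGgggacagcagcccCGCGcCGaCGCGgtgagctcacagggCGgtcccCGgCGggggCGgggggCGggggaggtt
Timm8a2: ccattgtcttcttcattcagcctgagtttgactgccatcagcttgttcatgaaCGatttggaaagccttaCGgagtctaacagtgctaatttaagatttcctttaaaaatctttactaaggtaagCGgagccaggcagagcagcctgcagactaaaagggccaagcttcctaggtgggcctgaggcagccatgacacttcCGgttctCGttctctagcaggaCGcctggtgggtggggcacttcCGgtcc
Timm23: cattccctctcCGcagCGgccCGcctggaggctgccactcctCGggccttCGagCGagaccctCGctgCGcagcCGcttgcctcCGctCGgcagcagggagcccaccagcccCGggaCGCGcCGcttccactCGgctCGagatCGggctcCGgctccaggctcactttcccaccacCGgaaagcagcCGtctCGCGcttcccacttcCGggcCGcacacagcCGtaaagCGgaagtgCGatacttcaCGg
Ucp3: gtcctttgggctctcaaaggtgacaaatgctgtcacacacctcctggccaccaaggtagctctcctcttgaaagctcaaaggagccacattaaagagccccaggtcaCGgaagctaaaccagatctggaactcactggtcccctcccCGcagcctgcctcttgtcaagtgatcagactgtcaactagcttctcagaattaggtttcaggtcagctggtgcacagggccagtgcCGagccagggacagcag

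The stretch before Timm8a1 held 29 CpG sites and that before Timm8a2 held 7, at 0.98 and 0.44 of the number expected from their C and G content. Timm23 held 29 (0.99 of expected) and Ucp3 held 3 (0.16). The letters CCGGAAG, the core read by GABPA and other ETS factors, were searched on both strands. They began 47 bases before the start of Timm23, and 54 and 10 bases before the start of Timm8a2, which gave no signal above background. They were not found in the stretches of Timm8a1 and Ucp3.

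Over the set, 56 of the 71 members had a RefSeq promoter window of 300 bases, from 250 before the start to 50 after it, and where a gene had several windows the highest value was taken. The median CpG ratio, observed over expected, was 0.79 for the 51 of these members above background on all arrays. It was 0.46 for the 5 that were not, namely Slc25a21 (0.29), Slc25a54 (0.55), Timm8a2 (0.46), Ucp1 (0.48) and Ucp3 (0.22). Over all genes outside the receptor families with a window, the medians were 0.78 for 10079 genes above background on all arrays and 0.28 for 3235 above it on none. A ratio of 0.6 was reached by 34 of the 51 (66.7%), beside 74.0% of all genes above background on all arrays. It was reached by 0 of the 5, beside 19.9% of all genes above background on none. The 5 are few and are not wholly alike to that set, as Ucp3 passed the limit on 1 array. The groups overlapped: Slc25a34 (0.038), Slc25a18 (0.22), Slc25a47 (0.33), Tomm5 (0.35) and Slc25a45 (0.35) were above background with few CpG sites. Of these only Tomm5 passed the higher limit, and the others were under it on every array. Tomm6 (0.47) and Slc25a20 (0.52) also passed the higher limit on all arrays. The motif CCGGAAG was present in 18 of the 67 member windows (26.9%) and in 8.86% of all 32851 windows, which were not limited to the genes analysed here. Counted by gene, it was present in 30.4% of the 56 members and in 14.9% of the 13849 genes outside the receptor families with a window. It was present in 29.4% of the 51 members above background on all arrays and in 18.6% of all such genes. It was also present in 2 of the 5 members not above background on all arrays, beside 4.61% of all genes above it on none. These are descriptions of sequence, and binding was not measured.

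**Figure D2:**
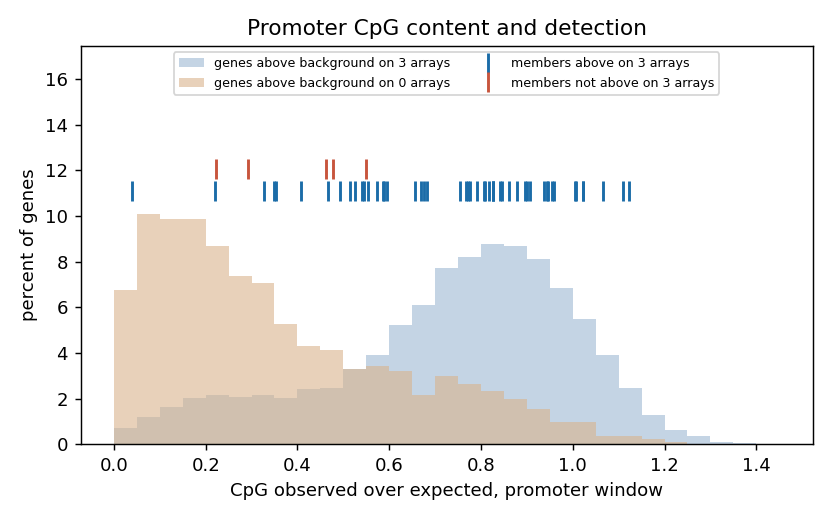
Distribution of the CpG ratio (x axis, observed over expected in the 300-base promoter window) as percent of genes (y axis), for genes above background on 3 arrays and on 0 arrays; ticks are the members with a window, 51 above background on all arrays and 5 not. The 5 members not above background lie between 0.22 and 0.55, within the range of the other 51.

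The carriers of the oxidative core gave signal on all arrays. Slc25a3, which brings phosphate into the matrix, read 10.28, 10.39 and 10.17. The ADP/ATP translocases export the ATP made inside: Slc25a4, the form known from heart and muscle, read 10.25, 10.47 and 10.16, and Slc25a5, the form of proliferating cells, read 10.86, 11.02 and 10.95. All 3 carriers were highest in repeat 2, by 0.16, 0.26 and 0.11 over the mean of the other repeats. None of the 3 had an unadjusted p under 0.05 in the test of spread described below, where the smallest of them was 0.0692 (limma), for Slc25a4. The translocases are close relatives and Slc25a5 has 2 probe sets 0.50 log2 units apart, with SDs of 0.16 and 0.040, so the even reading of one was not shared by the other and the split of signal between paralogs is uncertain.

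The ATP-Mg/phosphate carriers, a group that includes forms set by cytosolic calcium, differed from one another in detection. Slc25a25 was above both limits on all arrays (6.441, 6.595 and 6.503). Slc25a23 (5.91, 5.87 and 5.91) and Slc25a24 (5.353, 5.601 and 4.997) passed only the lower one. Slc25a41, a short form known from testis, read 4.35, 4.38 and 4.34 and passed neither. Slc25a24 had the largest SD of all members above background (0.30), with repeat 3 low and repeat 2 high.

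Carboxylate carriers fuel and drain the citric acid cycle. Mpc1, a subunit of the pyruvate carrier at the branch between glycolysis and respiration, read 6.48, 6.75 and 6.66. The citrate exporter Slc25a1, which supplies cytosolic acetyl-CoA, read 8.55, 8.85 and 8.84, and the oxoglutarate carrier Slc25a11 of the malate-aspartate shuttle read 7.75, 7.89 and 8.08. These 3 genes were lowest in repeat 1, by -0.23, -0.29 and -0.23 against the mean of the other repeats. The dicarboxylate carrier Slc25a10 was more even at 6.48 ± 0.059. The oxodicarboxylate carrier Slc25a21 was under the limit on every array, at 2.69, 2.89 and 2.59. This group had a median SD of 0.15 over 5 genes, with Slc25a21 included.

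Of 9 amino acid carriers 8 were above background on all arrays and 5 of them above the higher limit. The aspartate/glutamate carriers run the same shuttle: Slc25a13 read 9.09, 9.04 and 9.11 and hardly moved, while Slc25a12 read 8.17, 7.95 and 8.40, low in repeat 2 and high in repeat 3. The ornithine carrier Slc25a15 read 7.70, 7.77 and 7.59. Its paralog Slc25a2 read 4.62, 4.79 and 4.63 and passed the limit in repeats 2 and 3 only. Slc25a22 and Slc25a18 carry glutamate; the former read 6.18, 6.16 and 6.30, passing the higher limit in repeat 3 alone, and the latter 5.24, 5.30 and 5.21, near background. Slc25a38, the glycine carrier that feeds haem synthesis, read 8.01 ± 0.10, and Slc25a44, a carrier of branched-chain amino acids, read 7.71 ± 0.12. Slc25a29, for basic amino acids, lay under the higher limit on all arrays at 5.66 ± 0.12.

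All 13 carriers placed in the group of cofactors, nucleotides and metals were above background on all arrays, and 9 of them passed the higher limit too. The S-adenosylmethionine carrier Slc25a26 read 7.52, 7.54 and 7.43 and the folate carrier Slc25a32 7.61, 7.68 and 7.56; both supply one-carbon metabolism in the matrix. Slc25a51, which brings in NAD, read 6.99 ± 0.032. Slc25a39, a glutathione carrier, read 9.97, 10.04 and 10.07. Its paralog Slc25a40 read 6.71, 6.84 and 7.11, lowest in repeat 1 and highest in repeat 3, and its 2 probe sets differed by 1.30 log2 units in level while keeping that order of the repeats. The mitoferrins import iron: Slc25a28 read 7.33, 7.34 and 7.30, and Slc25a37, the form of developing red cells, read 6.17, 6.29 and 6.25, above the higher limit in repeat 3 only. The pyrimidine nucleotide carrier Slc25a36 read 9.95, 9.86 and 9.87, and its paralog Slc25a33 read 5.82, 5.71 and 5.78, under the higher limit on every array. Slc25a17, a carrier of peroxisomes, read 8.30 ± 0.096.

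The 3 members of that group with the largest SDs were Slc25a20 (0.29), Slc25a16 (0.27) and Slc25a42 (0.21), followed closely by Slc25a40 (0.20). They were picked out by these values. Slc25a20 exchanges carnitine and acylcarnitines for fatty acid oxidation and read 8.02, 8.42 and 7.84, high in repeat 2. Slc25a16, linked to coenzyme A, read 6.09, 6.08 and 6.56, high in repeat 3 with the other repeats alike. The coenzyme A carrier Slc25a42 read 5.37, 5.22 and 5.64, also highest in repeat 3, and stayed under the higher limit.

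Uncoupling proteins let protons leak across the inner membrane or are related to those that do. Ucp1, the heat-making protein of brown fat, read 3.86, 3.94 and 3.93, under the limit on every array. Ucp3, known from muscle, read 4.62, 4.44 and 4.63 and passed the limit in repeat 3 only. Their relative Slc25a30 was above both limits (6.79 ± 0.093), and Slc25a27, known from brain, passed only the lower one (5.13 ± 0.084). Of 6 markers of brown fat, muscle, liver and steroid-making cells, none passed the higher limit on all arrays and 2 passed the lower one, Ckm at 5.48 ± 0.29 and Star at 5.07 ± 0.23.

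Among the remaining carriers Slc25a46, an outer membrane protein of mitochondrial dynamics, was above both limits at 7.52, 7.65 and 7.59. Slc25a34 (4.94 ± 0.083), Slc25a35 (5.15 ± 0.042), Slc25a45 (5.08 ± 0.18), Slc25a47 (5.82 ± 0.030) and Slc25a48 (4.91 ± 0.12) passed only the lower limit. Slc25a54 read 2.85, 2.55 and 2.88 and passed neither. In all, 13 of the 64 members above background lay under the higher limit on every array and 3 passed it on some arrays, and all 16 are carriers except Tomm20l. The member that passed by the least, Slc25a48, read 4.78, 4.99 and 4.98, and Slc25a2, which missed on 1 array, read 4.62, 4.79 and 4.63.

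The median SD of the members between repeats was 0.083 log2 units over all 71, beside 0.10 over all 19057 genes, and 0.080 over the 64 above background, beside 0.10 over the 12820 genes above it. These medians were not matched for level, which the trend in the test below takes into account. The higher limit was passed by 67.6% of the members, beside 42.4% of genes outside both kinds of family, so a lower spread of the members at equal level was not shown. The widest span was 0.60 log2 units (1.52-fold), in Slc25a24, followed by Slc25a20 at 1.49-fold; both exceeded 0.5, which 4.46% of all genes above background did. The limma variance test set each gene's variance between repeats against the trend over the 13596 genes that passed the background limit on 1 array or more, and p values were adjusted over these genes by Benjamini-Hochberg. It called 0 of the 66 members tested at an adjusted p of 0.05, beside 0.162% of all genes, and the smallest adjusted p among members was 0.534. An unadjusted p under 0.05 was found for 4 members (6.06%), beside 5.75% of all genes, a share close to the background.

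These 4 were Slc25a20 (unadjusted p = 0.0102, limma), Slc25a24 (0.0336), Slc25a12 (0.0433) and Slc25a16 (0.0464), all carriers. Slc25a20 and Slc25a24 were highest in repeat 2, by 0.49 and 0.43, and lowest in repeat 3. Slc25a12 and Slc25a16 were highest in repeat 3, by 0.34 and 0.48, and lowest in repeat 2, although after median centring Slc25a16 was lowest in repeat 1. Their adjusted p values were 0.534, 0.798, 0.842 and 0.862, so none passed. Of the 11 feeder fibroblast markers 8 were highest in repeat 2. Over all 11 the median in that repeat was 0.39 above the mean of the other repeats. Acta2 read 7.57, 9.11 and 8.07, while S100a4 and Lum were lowest in repeat 2. The ES cell markers were highest in repeat 2 in 5 of 7, with Nanog and Zfp42 each 0.35 above the mean of the other repeats. Zfp42 read 11.24, 11.34 and 10.75, so it was mainly low in repeat 3. The part of either in the carriers' values was not tested.

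**Figure D3:**
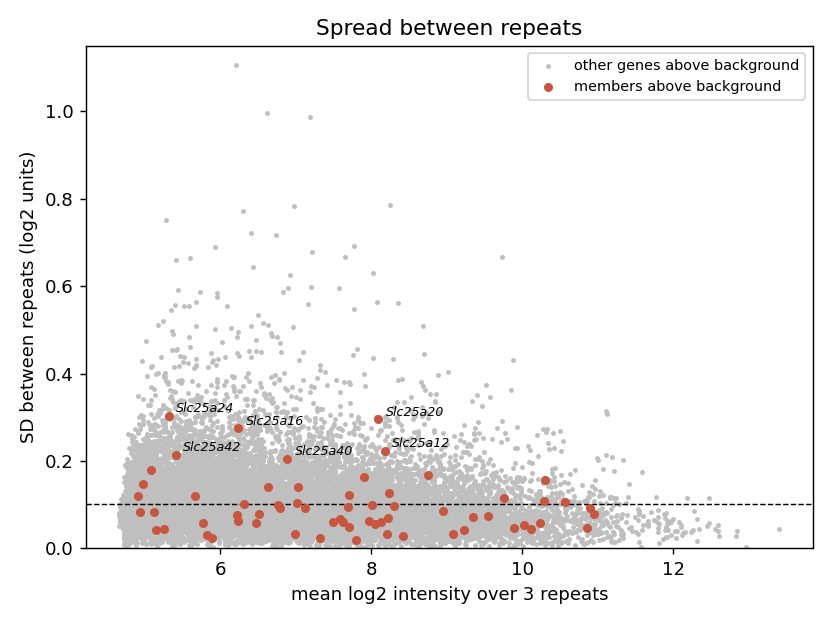
SD between the 3 repeats (y axis, log2 units) against mean log2 intensity (x axis) for genes above background on all arrays; red points are the 64 members and grey points the other genes. The dashed line is the median over all genes above background (0.10); the 6 named members have the largest SDs of the set, from 0.20 to 0.30.

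Of the 71 members 8 were highest in repeat 1, 35 in repeat 2 and 28 in repeat 3, or 11.3%, 49.3% and 39.4%, beside 35.9%, 33.1% and 31.0% of all 19057 genes and 30.0%, 36.9% and 33.1% of those above background. The median deviation of a repeat from the mean of the others was -0.045, 0.035 and 0.013 over the members in repeats 1, 2 and 3, against 0.010, -0.011 and -0.0018 over all genes. Over the 64 members above background it was -0.039, 0.026 and 0.015, against -0.011, 0.0064 and 0.0019 over all genes above background. No test of these shifts was made. Scaling changed the counts and medians. After quantile normalization the counts were 18, 26 and 27, so repeat 3 then held the most. The medians were -0.0076, 0.0025 and 0.016 over the members, against 0.011, -0.015 and 0.0044 over all genes. After median centring the counts were 6, 37 and 28. The medians were -0.078, 0.053 and 0.028 over the members, against -0.023, 0.0065 and 0.014 over all genes, which this scaling moved as well. With the highest probe set the counts were 8, 35 and 28. By role, the ADP/ATP and phosphate carriers (0.16) and the carboxylate carriers (0.16) had the largest median deviation in repeat 2, and the amino acid carriers had a negative one (-0.054). These 3 signs were the same after quantile normalization, after median centring and with the highest probe set of each gene. In contrast, the medians of the TOM, TIM23, TIM22 and cofactor groups in repeat 2 turned negative after quantile normalization. Of 5 carboxylate carriers 4 were highest in repeat 2, but 1 of them was Slc25a21 (0.25), which is under background. Slc25a11 deviated by -0.023 there.

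**Figure D4:**
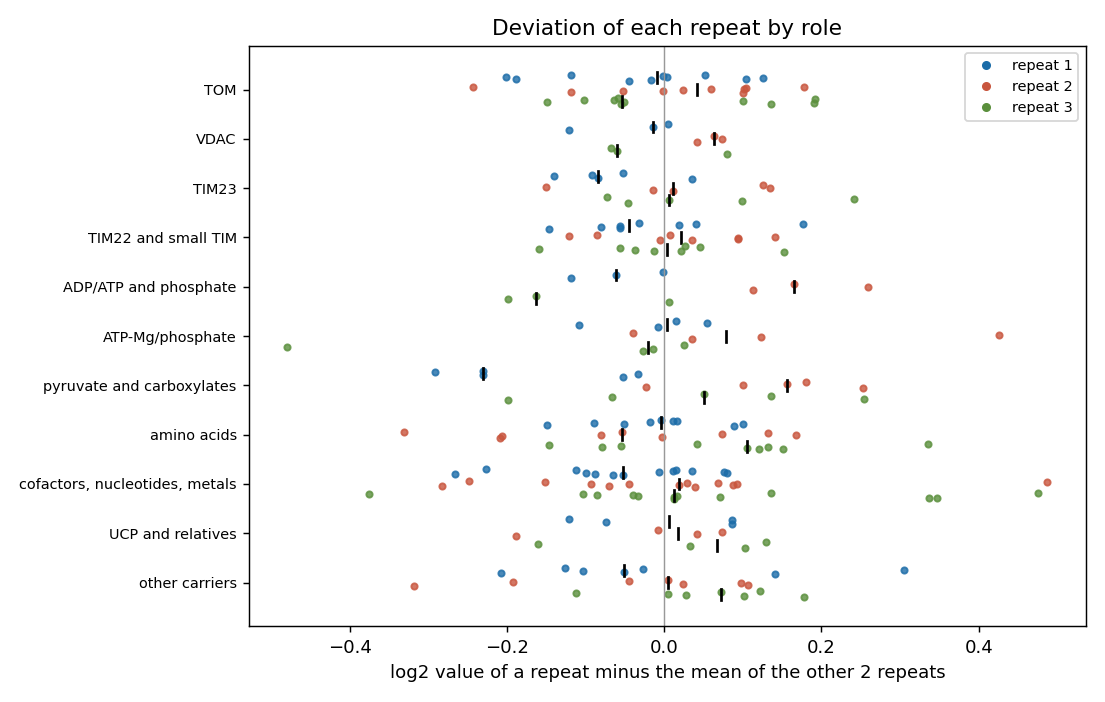
Log2 value of each repeat minus the mean of the other 2 repeats (x axis) for the 71 members by role (y axis); each point is 1 gene and black bars are medians. Of the 213 points 186 lie within 0.2 of 0; the median of the carboxylate carriers is -0.23 in repeat 1 and 0.16 in repeat 2.

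Of 40 other measured genes of import and inner membrane transport 39 (97.5%) were above background on all arrays and 35 (87.5%) above the higher limit, beside 90.1% and 67.6% of the members; the shares were not tested against each other. All 11 measured genes of the presequence motor and processing list, which holds the motor chaperone Hspa9 (11.55 ± 0.079) and the peptidase subunits Pmpca and Pmpcb, were above background on all arrays. So were all 6 of outer membrane sorting and assembly, all 8 of intermembrane space and inner membrane assembly, and all 3 of the cristae organising system. Of 12 other inner membrane transporters 11 were, and the sideroflexin Sfxn4 read 4.27, 4.34 and 4.43, under the limit on every array. The limma variance test called 0 of the 39 of these 40 genes that were tested, beside 0.162% of all genes. An unadjusted p under 0.05 was found for 1 of them, Hspe1, beside 5.75% of all genes. Its p was 0.0487 and its adjusted p 0.865 (limma). Hspe1, the cochaperonin that works with Hspd1 in folding imported proteins, read 11.25, 11.54 and 11.44 in the repeats.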

How the data were processed

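For each of 3 arrays the authors deposited linear intensities per probe set. Software was GCOS 1.4, per the submitters' processing notes. The background, scaling and probe summary steps are not stated by the labels, and they can change levels and spreads. No value column lacked a sample. Of 26730 probe sets, 20764 had 1 gene symbol, 1419 several and 4547 none, and the last 2 kinds were left out. Values were taken as log2, and a gene's probe sets were averaged where it had more than 1 (8 members). The variance test used limma 3.58.1 in R 4.3.3: an intercept-only fit, the variance over a trended, robust prior against F with 2 and 9.86 degrees of freedom. Its code was tested on simulated data. Promoter sequences are RefSeq's (GRCm38.p6), matched by gene ID.

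The members, lists and tests were chosen with earlier results of these data known. The naming rule asked for values of members not above background, paralogs, the 6 largest SDs, members with an unadjusted p under 0.05 and the import pores. Values of other members were given as well, by role. A call on 2 of 3 arrays, other cutoffs, scalings, probe set rules, priors and left-out repeats were tried. Python 3.11.15, numpy 2.4.6, pandas 2.3.3 and matplotlib 3.10.9 were used.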

Additional observations from a re-analysis of the deposited data

How the results depend on the processing

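The count of members above background, 64, was 55 with the limit at the 99th percentile of receptor genes, 48 with the other silent families and 65 when 2 of 3 arrays sufficed. It was 64 after quantile normalization, after median centring and with the highest probe set, and 64 to 65 with 1 repeat left out. The variance test called 0 members under each of the 9 alternatives run, and the smallest adjusted p of a member ranged from 0.496 to 0.938 (limma). Members with an unadjusted p under 0.05 numbered 1 without repeat 3, 5 without repeat 1 and 4 without repeat 2. The median SD of the members was 0.059 to 0.069 with 1 repeat left out and 0.083 to 0.089 under the scalings and the probe set rule. Levels of 6 members moved by more than their SD with the highest probe set, Slc25a40 to 7.54 and Vdac2 to 11.29 among them, and the SD of Slc25a41, which is under background, rose to 0.052 after quantile normalization. No paired analysis was possible because there is 1 group. With 3 arrays precision is low, and carriers near the background limit have little signal above it.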
